A study of Mus musculus with 9 samples.

Results

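Later mesoderm regulators were read in differentiating mouse embryoid bodies (EBs), which are ball-shaped cultures in which embryonic stem cells begin to differentiate. The members were 10 listed genes of lateral, cardiac, limb and paraxial mesoderm among the 55471 Ensembl genes of the count table: the receptor *Kdr*, the basic helix-loop-helix (bHLH) factors *Hand1* and *Twist1*, the T-box factors *Tbx2*, *Tbx4* and *Tbx20*, the forkhead factor *Foxf1*, the homeobox factors *Isl1* and *Meox1*, and the zinc finger factor *Osr1*. They were listed by name and matched to Ensembl IDs, and all 10 were in the table.

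RNA was sequenced from 9 libraries, 3 of each group. The parental E-14 embryonic stem cell line gave the wild-type EBs (WT). The *Tnfaip2*-/- EBs (KO) came from 1 clone of that line, in which CRISPR-Cas9 had left a frameshift and an early stop codon, so that the genotype and the clone cannot be told apart. The third group (KO_PAPC) was the same clone given 8 μM palmitic acid and 8 μM palmitoyl-L-carnitine (PA/PC). EBs were formed over 3 days, in hanging drops per the labels, and differentiated for 3 days on gelatin. By the methods of the study, PA/PC was present while the KO_PAPC EBs formed as well as during differentiation. These methods name fibroblast medium for that first step with PA/PC and stem cell medium for EBs in general, so that the agents and the medium of EB formation cannot be told apart if the KO EBs were formed in the latter. The KO EBs had the vehicle of PA/PC, and each KO and KO_PAPC replicate was a separate pool of EBs, by the description in the study. For the sequenced WT EBs the study states no vehicle. If they had none, the vehicle cannot be told apart from genotype and clone in KO against WT. WT EBs with PA/PC were not analysed here, so an effect of PA/PC could be read only in the KO clone. Depth was even, at 27362913 to 28914312 counts per library.

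*Tnfaip2*, the targeted gene, was near the floor in every library, at 16, 6 and 10 counts in WT, 5, 6 and 8 in KO, and 25, 14 and 16 in KO_PAPC. A frameshift need not lower a transcript, so these counts did not check the genotype, and every direction below is that of the libraries labelled KO or KO_PAPC.

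During gastrulation, cells that pass through the primitive streak become mesoderm and are then sorted by position. Lateral plate mesoderm gives rise to heart, vessels, gut wall and limb bud, paraxial mesoderm to the somites, and intermediate mesoderm to the kidney. *Kdr* encodes the main receptor for vascular endothelial growth factor (VEGF) and marks early mesoderm that can form blood, vessels and heart. *Hand1* acts in lateral, cardiac and extraembryonic mesoderm and in trophoblast. *Foxf1* acts in the splanchnic layer around the gut, *Tbx20* and *Isl1* in heart progenitors, *Tbx2* in non-chamber heart muscle, *Tbx4* in the hindlimb field and allantois, *Meox1* in somites, *Osr1* in intermediate and lateral mesoderm, and *Twist1* in head mesenchyme, limb bud and neural crest.

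The members were weakly expressed, and *Osr1* was the 1 member at the detection floor, set at 3 counts in every library, which is 0.104 to 0.110 counts per 1000000 counts of the library (CPM). It had 0, 0 and 1 counts in WT, 0, 2 and 0 in KO, and 1, 0 and 0 in KO_PAPC. No group could be told from another at this depth, and *Osr1* was not tested in any comparison. *Foxf1*, *Meox1* and *Isl1* lay next above, with no library over 14, 31 and 23 counts. On the scale of CPM per kilobase of exon, averaged over the 9 libraries, the order from the top was *Twist1* at 4.86, *Hand1* at 0.922, *Tbx4* at 0.695, *Kdr* at 0.328, *Tbx2* at 0.283, *Meox1* at 0.202, *Tbx20* at 0.171, *Isl1* at 0.144, *Foxf1* at 0.0937 and *Osr1* at 0.00772. Of 23641 genes with a library above the floor, 66.6% were lower than *Twist1* and 46.6% were lower than *Hand1* per length. On this average over the 9 libraries, only *Twist1* of the 10 therefore stood above the middle of the detected genes. Shares within single groups were not computed.

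The order of the levels per length differed between the groups. In WT, *Twist1* (7.10 ± 0.651 CPM per kilobase, SD, n = 3) and *Tbx4* (0.932 ± 0.137) led, and *Tbx2* (0.398 ± 0.0268), *Hand1* (0.389 ± 0.0420) and *Tbx20* (0.341 ± 0.0170) followed within or just beyond their spread of one another. *Kdr* (0.214 ± 0.0546), *Isl1* (0.187 ± 0.0246) and *Foxf1* (0.168 ± 0.0318) were also within their spread in WT. In KO, *Hand1* (2.27 ± 0.261 CPM per kilobase) was in second place and *Tbx4* (1.03 ± 0.0510) and *Kdr* (0.711 ± 0.0557) came after it. In KO_PAPC, *Twist1* (3.78 ± 0.139 CPM per kilobase) was far above *Tbx4* (0.117 ± 0.0275), *Tbx2* (0.113 ± 0.0250) and *Hand1* (0.109 ± 0.0373), which were within their spread of each other.

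**Figure D1:**
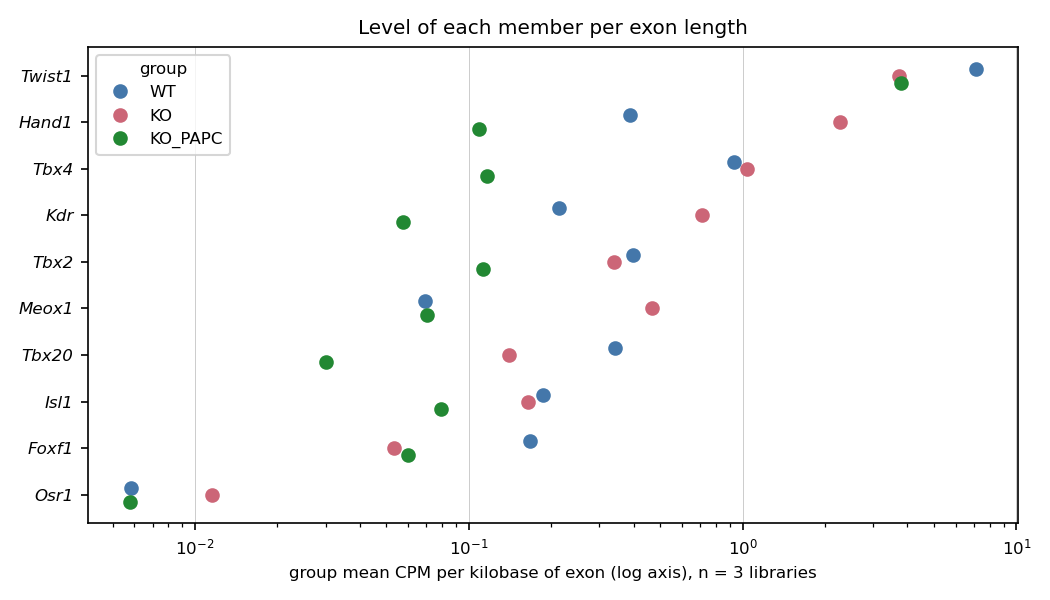
Mean level of each member in WT, KO and KO_PAPC, in CPM per kilobase of exon on a log axis (n = 3 libraries per point). *Twist1* is at the top in every group at 3.71 or more, *Osr1* is at 0.0115 or less, and 6 of the other 8 members have their lowest point in KO_PAPC, with *Foxf1* lowest in KO (0.0532) and *Meox1* alike in WT (0.0695) and KO_PAPC (0.0703).

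The first comparison asked what differed between the KO clone and its parental line. *Kdr*, *Hand1* and *Meox1* rose in KO, by 3.32-fold, 5.81-fold and 6.55-fold, while *Twist1*, *Tbx20* and *Foxf1* fell, by 1.91-fold, 2.43-fold and 3.08-fold. *Tbx2*, *Tbx4* and *Isl1* did not pass the test. Of all 17355 genes tested in this comparison, 36.8% were called higher and 37.1% lower in KO at an adjusted p under 0.05 (quasi-likelihood test of edgeR, Benjamini-Hochberg adjustment, after a filter on low counts), so 3 and 3 calls among 9 tested members are near the background. Against a tested minimum fold change of 2, 5.36% of genes were called higher, among them all 3 of the members that rose, and 3.79% were called lower, among them no member. The median log2 fold change of the 9 tested members was -0.17, and that of all tested genes was -0.0059. In bulk EBs, fewer cells of a type and less RNA per cell cannot be told apart.

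The second comparison asked how PA/PC moved the members in the KO clone. Of 8 tested members, 7 were lower in KO_PAPC than in KO, from *Hand1* at 18.3-fold to *Isl1* at 1.85-fold, and *Twist1* did not pass the test. A gene can pass the filter through KO alone, so these counts are read beside those of all genes. In this comparison 42.2% of 17167 genes were called lower and 39.6% higher. With a tested minimum fold change of 2 the share of genes called lower was 14.4%, and 5 of the 8 members were among them (*Kdr*, *Hand1*, *Tbx4*, *Tbx20* and *Meox1*). The median log2 fold change was -2.29 over the 8 members and -0.017 over all tested genes. *Foxf1* and *Osr1* were too low to be tested, and in the fit without a filter the medians were -1.70 over all 10 members and -0.17 over all genes.

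Between KO_PAPC and WT, 7 members were tested and all 7 were lower in KO_PAPC, from *Tbx20* at 10.0-fold to *Twist1* at 1.68-fold. Here a gene can pass the filter through WT alone, which favours members that are low in KO_PAPC, so this count too is read beside all genes. The background was 36.4% of 16655 genes lower and 34.2% higher, and 7.05% lower against a minimum fold change of 2, which *Kdr*, *Tbx2*, *Tbx4* and *Tbx20* passed. The median was -1.66 over the 7 members and -0.017 over all tested genes. *Foxf1*, *Meox1* and *Osr1* were not tested, and without a filter the medians were -1.46 over all 10 members and -0.083 over all genes. Both comparisons with KO_PAPC use the same KO_PAPC libraries, so their counts are not independent of each other. Summed over the 10 members, WT libraries held 22.7 to 25.6 CPM, KO libraries 24.2 to 26.3 and KO_PAPC libraries 8.18 to 9.54. The WT and KO sums overlapped although single members differed in both directions, and the KO_PAPC sums lay below all others. *Twist1* was the largest part of the sum in WT and KO_PAPC, with means of 11.6 and 6.15 CPM. In KO the largest parts were *Kdr* (6.42 CPM) and *Twist1* (6.04 CPM).

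**Figure D2:**
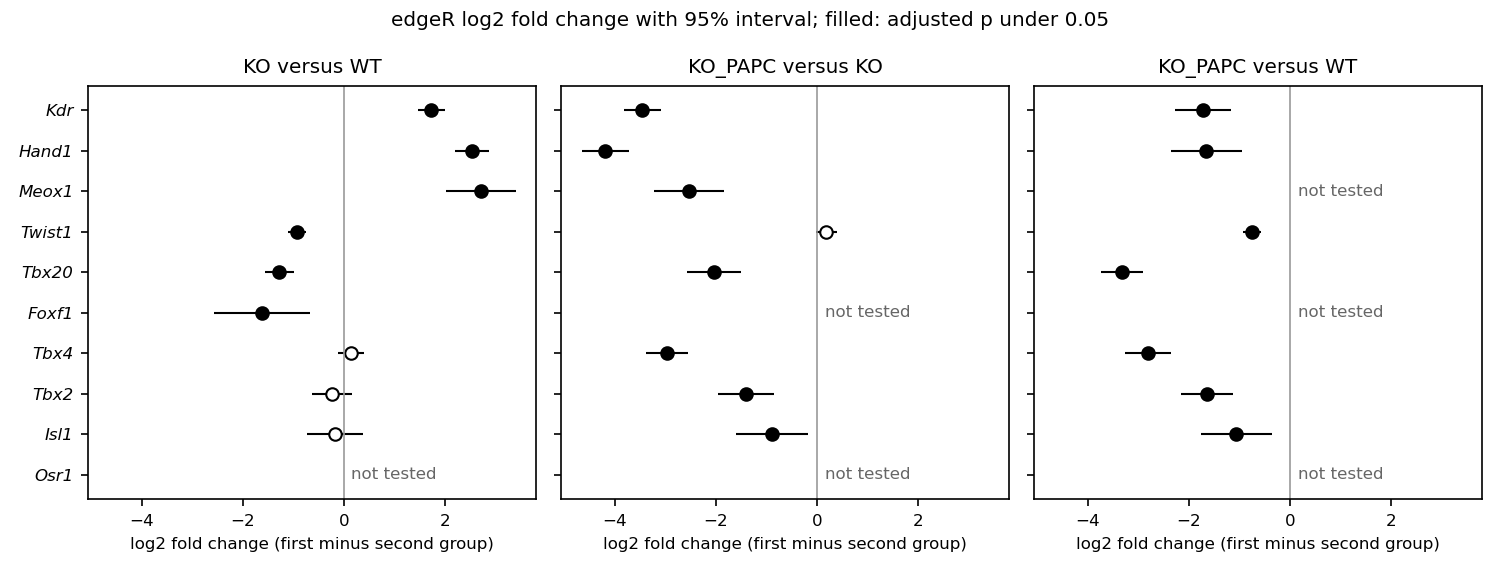
Log2 fold change of each member from edgeR (x axis, first group minus second) with its 95% interval, in KO against WT, KO_PAPC against KO and KO_PAPC against WT; filled points had an adjusted p under 0.05. In the first panel 3 filled points lie to the right and 3 to the left of 0; in the other panels every filled point lies to the left, 7 in each.

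The calls give 3 courses over the groups. *Kdr*, *Hand1* and *Meox1* were raised in KO and low in KO_PAPC. *Twist1* and *Tbx20* were lower than WT both in KO and in KO_PAPC, and *Foxf1* was lower in KO and was not tested in the comparisons with KO_PAPC. *Tbx2*, *Tbx4* and *Isl1* were lower in KO_PAPC than in either other group and did not pass the test between KO and WT. Groups without overlapping libraries were the usual case among all tested genes. The share was 75.25% in KO against WT, 82.12% in KO_PAPC against KO and 73.05% in KO_PAPC against WT. A lack of overlap given below for a member is read beside these shares.

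**Figure D3:**
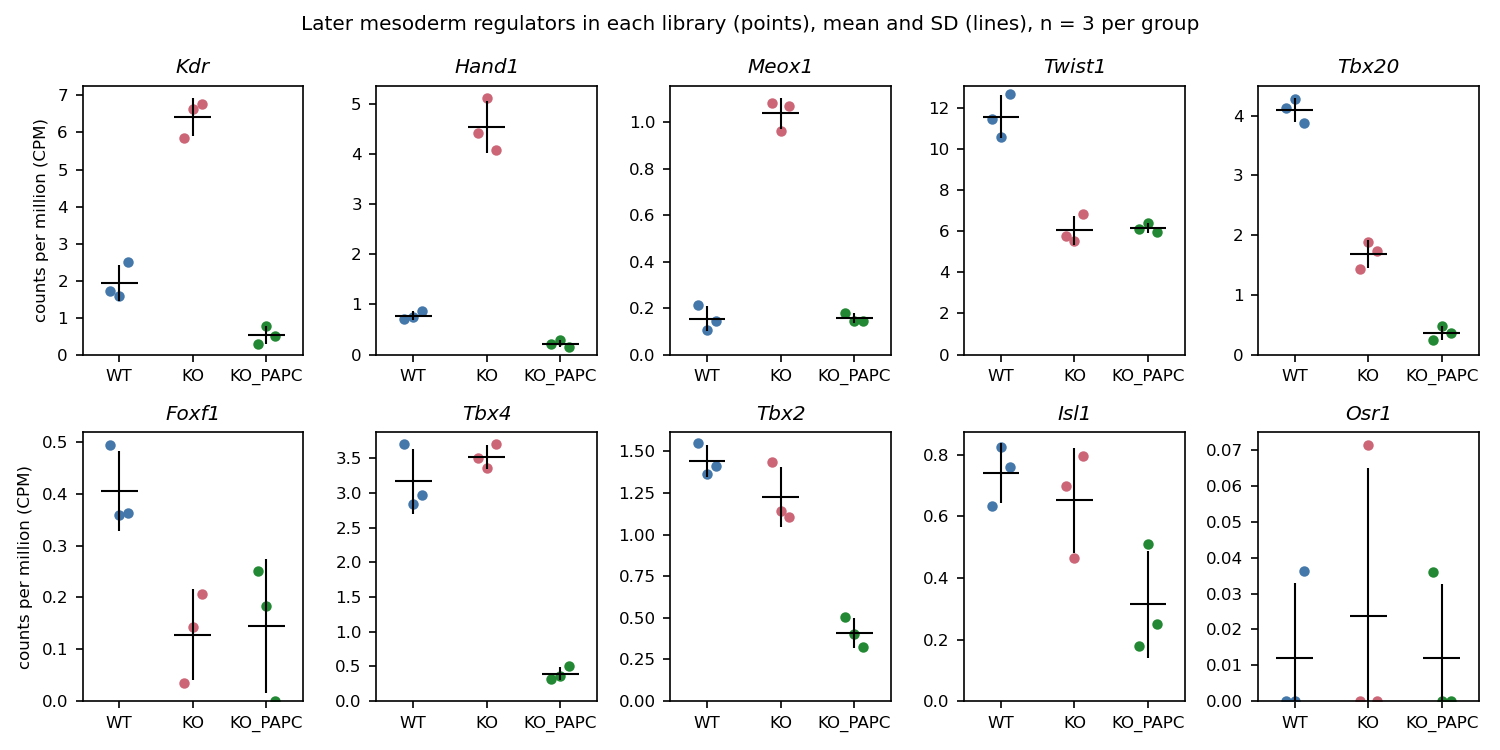
CPM of the 10 members in each of the 9 libraries (points), with the group mean and SD (lines, n = 3), on a linear axis from 0 for each gene. *Kdr*, *Hand1* and *Meox1* peak in KO, *Twist1*, *Tbx20* and *Foxf1* are highest in WT, and *Tbx4* and *Tbx2* drop in KO_PAPC only; *Osr1* has at most 2 counts.

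*Kdr* (ENSMUSG00000062960, GRCm38 chromosome 5, 75932827 to 75978458, minus strand) had 49, 44 and 69 counts in WT. It had 167, 186 and 196 in KO and 8, 21 and 14 in KO_PAPC. The 3 groups did not overlap, with KO highest and KO_PAPC lowest. In the order WT, KO, KO_PAPC, the means were 1.94 ± 0.493, 6.42 ± 0.503 and 0.519 ± 0.240 CPM (SD, n = 3). The log2 fold change was 1.73 ± 0.131 (SE) in KO against WT (adjusted p = 8.23e-14 by edgeR). It was -3.46 ± 0.183 in KO_PAPC against KO (adjusted p = 3.73e-19 by edgeR) and -1.73 ± 0.267 in KO_PAPC against WT (adjusted p = 3.15e-06 by edgeR). *Kdr* thus ended below WT, not at it.

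*Hand1* (ENSMUSG00000037335, chromosome 11, 57828705 to 57832818, minus strand) followed the same course at a lower count. It had 20, 21 and 24 counts in WT, 126, 143 and 118 in KO, and 6, 8 and 4 in KO_PAPC. Again no 2 groups overlapped. The means were 0.777 ± 0.0839, 4.53 ± 0.522 and 0.217 ± 0.0744 CPM (SD, n = 3). *Hand1* rose by 2.54 ± 0.166 on the log2 scale in KO against WT (adjusted p = 1.60e-15 by edgeR). In KO_PAPC against KO it had the largest fall of the tested members, -4.19 ± 0.232 (adjusted p = 1.33e-18 by edgeR), and it was below WT by a log2 fold change of -1.66 ± 0.338 (adjusted p = 1.20e-04 by edgeR).

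Because *Hand1* is also a trophoblast gene, the other trophoblast markers were read beside it. The spongiotrophoblast gene *Tpbpa* and the giant cell gene *Prl3d1* were at 0 in all 9 libraries. The 7 trophoblast markers that are in no other list summed to 59.2 to 60.8 CPM in WT, 298 to 304 in KO and 32.6 to 35.2 in KO_PAPC. Most of that sum was *Tfap2c*, which is also a germ cell gene, with 1488 to 1520 counts in WT, 8329 to 8461 in KO and 739 to 789 in KO_PAPC. Without it the sums overlapped, at 5.54 to 6.11, 5.57 to 6.36 and 5.74 to 6.89 CPM.

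*Meox1* (ENSMUSG00000001493, chromosome 11, 101877510 to 101894374, minus strand) had 6, 3 and 4 counts in WT, 31, 27 and 31 in KO, and 5, 4 and 4 in KO_PAPC. Every KO library lay above every other library, and WT and KO_PAPC overlapped just above the floor. The means were 0.155 ± 0.0526, 1.04 ± 0.0668 and 0.157 ± 0.0203 CPM (SD, n = 3). The log2 fold change was 2.71 ± 0.338 in KO against WT (adjusted p = 9.83e-09 by edgeR) and -2.54 ± 0.342 in KO_PAPC against KO (adjusted p = 2.27e-08 by edgeR). KO_PAPC against WT was below the filter on low counts. In the fit without a filter it was 0.19 ± 0.595 with a 95% interval of -0.99 to 1.37 (adjusted p = 0.833 by edgeR), and this interval includes a 2-fold rise.

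*Twist1* (ENSMUSG00000035799, chromosome 12, 33957671 to 33959829, plus strand), a bHLH factor of mesenchyme and the most abundant member, had 324, 294 and 350 counts in WT. It had 165, 154 and 198 in KO and 169, 175 and 166 in KO_PAPC. All WT libraries were above all others, and KO and KO_PAPC overlapped. The means were 11.6 ± 1.06, 6.04 ± 0.713 and 6.15 ± 0.226 CPM (SD, n = 3). The log2 fold change was -0.93 ± 0.0875 in KO against WT (adjusted p = 1.66e-11 by edgeR) and -0.75 ± 0.0859 in KO_PAPC against WT (adjusted p = 3.00e-08 by edgeR). In KO_PAPC against KO it was 0.19 ± 0.0983, with a 95% interval of -0.010 to 0.39 (adjusted p = 0.0745 by edgeR). Without KO replicate 3, the highest of its group, that value was 0.29 and was called (adjusted p = 0.0165 by edgeR). Scaled by library totals instead of TMM it was 0.023 (adjusted p = 0.836 by edgeR).

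*Tbx20* (ENSMUSG00000031965, chromosome 9, 24718138 to 24774303, minus strand), needed for growth of the heart tube, fell at each step. It had 117, 119 and 107 counts in WT, 41, 53 and 50 in KO, and 7, 13 and 10 in KO_PAPC. No 2 groups overlapped. The means were 4.09 ± 0.203, 1.69 ± 0.231 and 0.362 ± 0.112 CPM (SD, n = 3). The log2 fold change was -1.28 ± 0.139 in KO against WT (adjusted p = 4.83e-10 by edgeR), -2.04 ± 0.262 in KO_PAPC against KO (adjusted p = 7.83e-09 by edgeR) and -3.32 ± 0.203 in KO_PAPC against WT (adjusted p = 2.42e-13 by edgeR). The last was the largest distance from WT of any member tested there.

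*Foxf1* (ENSMUSG00000042812, chromosome 8, 121084386 to 121088144, plus strand) was low throughout, with 14, 10 and 10 counts in WT, 1, 4 and 6 in KO, and 7, 5 and 0 in KO_PAPC. WT lay above both other groups, which overlapped each other. In KO against WT the log2 fold change was -1.62 ± 0.468 (adjusted p = 0.00241 by edgeR). In the fit without a filter it was -1.29 ± 0.488 in KO_PAPC against WT (adjusted p = 0.0270 by edgeR), and 0.35 ± 0.683 in KO_PAPC against KO with a 95% interval of -1.02 to 1.72 (adjusted p = 0.694 by edgeR). Of its exon bases, 4.06% overlap the antisense gene *Gm27530* and its counts are uncertain there.

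*Tbx4* (ENSMUSG00000000094, chromosome 11, 85886422 to 85916097, plus strand) and *Tbx2* (ENSMUSG00000000093, chromosome 11, 85832551 to 85841948, plus strand) are neighbours, 44.5 kb apart. *Tbx4* had 105, 79 and 82 counts in WT, 100, 94 and 107 in KO, and 9, 10 and 14 in KO_PAPC. *Tbx2*, a repressor, had 44, 38 and 39 in WT, 41, 32 and 32 in KO, and 14, 11 and 9 in KO_PAPC. For both genes WT and KO overlapped and every KO_PAPC library was below every other library. In KO against WT the log2 fold change was 0.15 ± 0.127 for *Tbx4*, with a 95% interval of -0.11 to 0.41 (adjusted p = 0.288 by edgeR). For *Tbx2* it was -0.23 ± 0.191, with an interval of -0.62 to 0.16 (adjusted p = 0.275 by edgeR). These intervals leave out a 2-fold change.

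With PA/PC both genes of the pair were lower. In KO_PAPC against KO, *Tbx4* had a log2 fold change of -2.97 ± 0.208 (adjusted p = 1.44e-15 by edgeR) and *Tbx2* one of -1.41 ± 0.270 (adjusted p = 1.40e-05 by edgeR), with 95% intervals of -3.39 to -2.54 and -1.96 to -0.86. In KO_PAPC against WT the values were -2.82 ± 0.222 (adjusted p = 3.01e-11 by edgeR) and -1.64 ± 0.249 (adjusted p = 2.32e-06 by edgeR). The difference between the genes was not tested. *Bcas3*, 6.49 kb from *Tbx2*, had 1391 to 1508 counts in WT, 2514 to 2561 in KO and 819 to 899 in KO_PAPC. It was higher in KO than in WT by a log2 fold change of 0.78 (adjusted p = 1.24e-19 by edgeR). Like the pair it was lower in KO_PAPC, at -1.35 against KO (adjusted p = 5.13e-27 by edgeR) and -0.57 against WT (adjusted p = 9.30e-11 by edgeR). A rise in KO and fall in KO_PAPC against KO was not particular to this locus. *Sap30l* near *Hand1* (0.705 and -0.692) and *Dhx8* near *Meox1* (0.871 and -0.999) had it too. *Mpp3* near *Meox1* did not (0.0046 and 0.94). All of these genes are on chromosome 11, whose tested genes had median log2 fold changes of 0.21 and -0.36 in the same comparisons. The part of that shift in their values was not tested. These neighbours were chosen for naming after their values were seen.

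*Isl1* (ENSMUSG00000042258, chromosome 13, 116298281 to 116309689, minus strand), a factor of second heart field and motor neurons, had 18, 23 and 21 counts in WT, 20, 13 and 23 in KO, and 5, 14 and 7 in KO_PAPC. KO overlapped both other groups, since its second library (13) was below the second KO_PAPC library (14), while KO_PAPC lay below WT. The log2 fold change was -0.17 ± 0.269 in KO against WT, with a 95% interval of -0.72 to 0.37 (adjusted p = 0.565 by edgeR). It was -0.89 ± 0.356 in KO_PAPC against KO (adjusted p = 0.0219 by edgeR) and -1.07 ± 0.339 in KO_PAPC against WT (adjusted p = 0.00724 by edgeR). The calls were the least stable of the members. DESeq2 called neither (adjusted p = 0.164 and 0.0829). The first was lost without KO replicate 1 (log2 fold change -0.84), KO replicate 3 (-0.73), KO_PAPC replicate 1 (-0.60) or KO_PAPC replicate 3 (-0.74), with adjusted p from edgeR of 0.0583, 0.0982, 0.138 and 0.0915. The second was lost without KO_PAPC replicate 1 (-0.79, edgeR adjusted p = 0.0541).

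The promoters of *Kdr*, *Tbx20* and *Twist1* are shown as examples of a gene raised in KO and low in KO_PAPC, a gene lower at each step, and a gene lower in KO with no call between KO_PAPC and KO. For the course of *Tbx2*, *Tbx4* and *Isl1* no promoter is printed, since the RefSeq start of *Tbx4* lies inside the gene body given above and the calls of *Isl1* were unstable. RefSeq promoters of GRCm38.p6 matched 5 of the 10 members (*Kdr*, *Tbx4*, *Tbx20*, *Isl1* and *Twist1*). Each line gives the 250 bases before the RefSeq start, 5′ to 3′ on the gene's own strand, at chr5:75978456-75978705 (minus), chr9:24774304-24774553 (minus) and chr12:33957421-33957670 (plus). Capitals mark matches to the 5 motifs that were searched on both strands. The first was AGATAA, which zinc finger factors such as *Gata4* bind. The second was the E-box, CANNTG, which is bound by bHLH factors. The third was TCACAC, the core of the site of T-box factors. The others were TATAAA, the core promoter element near the start of transcription, and CCAAT, bound by nuclear factor Y.
Kdr: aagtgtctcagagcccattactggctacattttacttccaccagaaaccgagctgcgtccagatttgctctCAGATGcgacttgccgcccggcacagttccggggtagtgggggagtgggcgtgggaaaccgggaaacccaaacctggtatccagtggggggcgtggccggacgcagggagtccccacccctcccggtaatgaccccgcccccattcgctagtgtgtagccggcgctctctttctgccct
Tbx20: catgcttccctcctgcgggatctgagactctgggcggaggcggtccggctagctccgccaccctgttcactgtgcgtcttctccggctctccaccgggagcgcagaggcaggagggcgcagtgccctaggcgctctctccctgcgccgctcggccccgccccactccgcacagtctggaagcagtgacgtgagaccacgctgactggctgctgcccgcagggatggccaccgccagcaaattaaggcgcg
Twist1: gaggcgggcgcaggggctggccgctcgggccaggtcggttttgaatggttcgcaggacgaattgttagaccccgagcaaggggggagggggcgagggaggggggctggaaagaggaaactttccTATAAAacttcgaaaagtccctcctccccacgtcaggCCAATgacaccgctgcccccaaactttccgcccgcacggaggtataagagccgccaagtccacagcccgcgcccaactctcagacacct

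*Kdr* held 1 E-box match, *Twist1* 1 TATAAA and 1 CCAAT match, and *Tbx20* none of the 5 motifs. *Isl1* held 1 E-box and 2 CCAAT matches, and *Tbx4* 3 E-boxes and 1 TATAAA. Among 32851 promoters of the same length, an E-box was found in 66.2%, the CCAAT letters in 33.9% and the TATAAA letters in 12.4%. The share was 12.3% for TCACAC and 9.99% for AGATAA. No 2 matches overlap in the promoters shown. By base composition the GC content was 61.6% for *Kdr*, 68.8% for *Tbx20*, 62.4% for *Twist1*, 71.2% for *Isl1* and 58.4% for *Tbx4*, all above the median of 52.4%. The ratio of observed to expected CpG was 1.05 for *Isl1* and 0.285 for *Tbx4*, the latter below the median of 0.374.

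The medians of whole chromosomes differed between the groups, and their part in the values of the members was not tested. *Hand1*, *Tbx2*, *Tbx4* and *Meox1* are on chromosome 11, whose tested genes had a median log2 fold change of 0.21 in KO against WT, -0.36 in KO_PAPC against KO and -0.17 in KO_PAPC against WT. On the other chromosomes together the medians were -0.025, 0.0085 and -0.0033. Relative to the chromosome's median, *Hand1* was 2.33 and *Meox1* 2.499 higher in KO against WT on the log2 scale, and *Tbx4* lay at -2.60 and *Tbx2* at -1.05 in KO_PAPC against KO. For *Foxf1* on chromosome 8, with a median of -0.23 in KO against WT, the value relative to it was -1.39. *Isl1* and *Twist1*, on chromosomes with medians of 0.38 and 0.32 in KO_PAPC against KO, were at -1.27 and -0.13 relative to these. In KO against WT these 2 chromosomes had medians of -0.17 and -0.18, and *Isl1* and *Twist1* were at -0.0056 and -0.75 relative to them.

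The genes around the members in their pathways were taken from fixed lists. Counts called in each list are read beside the shares of all tested genes. These were 36.8% higher and 37.1% lower in KO against WT, and 39.6% higher and 42.2% lower in KO_PAPC against KO. For KO_PAPC against WT they were 34.2% higher and 36.4% lower. The VEGF receptors related to *Kdr* did not move with it as a group. *Flt1*, a VEGF receptor that holds back signalling by *Kdr*, had means of 10.98 ± 0.484, 4.59 ± 0.648 and 5.88 ± 0.0687 CPM (SD, n = 3, in the order WT, KO, KO_PAPC), falling in KO (log2 fold change -1.26 ± 0.0909, edgeR adjusted p = 2.47e-14). *Flt4*, the receptor of lymphatic vessels, rose in KO by 0.51 ± 0.0640 (adjusted p = 9.49e-09 by edgeR) and fell in KO_PAPC against KO, with a log2 fold change of -0.65 ± 0.0647 (adjusted p = 2.00e-11 by edgeR). The coreceptor *Nrp2* had the same course as *Kdr* at a higher level, at 24.2 ± 0.267, 108 ± 1.73 and 3.66 ± 0.428 CPM. The ligand *Vegfa* went the other way in both comparisons, at 143 ± 3.86, 53.8 ± 2.42 and 72.4 ± 1.29 CPM. Of 7 VEGF ligands and coreceptors, 1 was called higher and 4 lower in KO against WT, and 3 higher and 2 lower in KO_PAPC against KO.

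Of the 10 paralogues of the members, 6 were tested in KO against WT, with 3 higher and 2 lower, and 4 in KO_PAPC against KO, with 1 higher and 3 lower. *Tbx3*, the closest relative of *Tbx2* and also a gene of embryonic stem cells, had means of 115 ± 2.03, 216 ± 0.726 and 28.9 ± 0.128 CPM (SD, n = 3, in the order WT, KO, KO_PAPC). Its fall in KO_PAPC against KO was -2.74 ± 0.0343 on the log2 scale (adjusted p = 1.27e-38 by edgeR). *Twist2* was at the floor, with at most 3 counts in any library, and *Tbx5*, *Meox2* and *Osr2*, chosen for naming after their values were seen, were not tested. The bHLH partners of *Hand1* and *Twist1*, the E proteins *Tcf3*, *Tcf4* and *Tcf12*, all fell slightly in KO, with a median of -0.21, and all rose in KO_PAPC against KO, with a median of 0.49.

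In the blood and endothelial list, 5 of 9 tested genes were higher and 2 lower in KO against WT, and 3 of 11 were higher and 7 lower in KO_PAPC against KO, with medians of 0.45 and -1.67. *Pecam1*, an endothelial adhesion molecule that stem cells also express, was at 80.8 ± 1.37, 138 ± 2.03 and 26.5 ± 1.29 CPM in WT, KO and KO_PAPC (SD, n = 3). *Gata2*, a factor of blood progenitors, was at 0.633 ± 0.114, 4.79 ± 0.512 and 0.289 ± 0.0341 CPM, a course like that of *Kdr* and *Hand1*. Of the cardiac list, 6 genes were tested in KO against WT, with 1 higher and 3 lower, and 7 in KO_PAPC against KO, with 4 higher and 3 lower. *Gata4* fell at each step like *Tbx20*, at 32.5 ± 1.24, 21.0 ± 0.297 and 2.59 ± 0.401 CPM, and *Gata6* did so at 30.0 ± 1.01, 12.2 ± 0.776 and 2.00 ± 0.290 CPM. Both are also endoderm genes. *Myl7*, an atrial myosin light chain, was instead higher in KO_PAPC than in KO by 0.98 ± 0.171 (adjusted p = 2.67e-06 by edgeR).

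Of 9 tested paraxial genes, 1 was higher and 6 lower in KO against WT, while 8 were higher and 1 lower in KO_PAPC against KO, with a median of 1.01. *Dll1*, a Notch ligand of presomitic mesoderm, was at 15.2 ± 0.839, 5.35 ± 0.324 and 22.4 ± 0.773 CPM (SD, n = 3), whereas the somite gene *Meox1* was highest in KO. In the limb and lateral plate list, 1 of 10 tested genes was higher and 7 lower in KO against WT, and 5 were higher and 2 lower in KO_PAPC against KO. The 5 of 10 called higher are near the 39.6% of all genes called higher in that comparison. *Msx1*, a homeobox factor of the limb bud, was at 5.81 ± 0.166, 1.27 ± 0.165 and 9.87 ± 0.256 CPM. *Bmp4*, a ligand of ventral mesoderm, was also highest in KO and lowest in KO_PAPC, at 11.2 ± 0.308, 31.9 ± 2.12 and 5.13 ± 0.212 CPM. A link between *Bmp4* and the members was not tested. The primitive streak gene *T*, of the T-box family, was at 1.91 ± 0.214, 0.292 ± 0.109 and 15.5 ± 1.15 CPM. In the T-box family outside the members, 3 of 9 tested genes were higher and 5 lower in KO against WT, and 3 were higher and 6 lower in KO_PAPC against KO. Of 6 intermediate mesoderm genes, 3 were higher and 2 lower in KO against WT, and 4 were higher and 2 lower in KO_PAPC against KO.

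**Figure D4:**
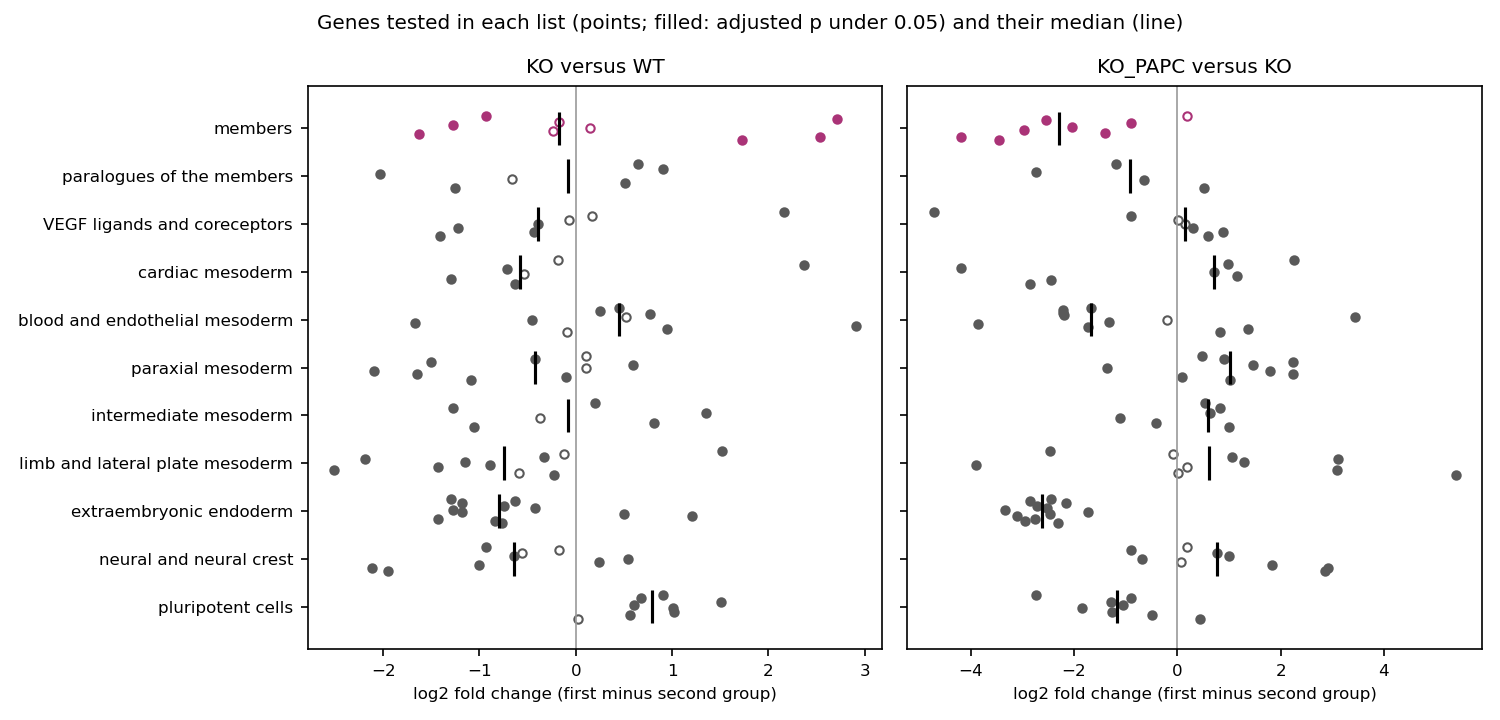
Log2 fold changes of the tested genes of each list in KO against WT (left) and KO_PAPC against KO (right), 1 point per gene, filled where the adjusted p was under 0.05, with the list's median as a line. In the right panel the members' median is -2.29, that of extraembryonic endoderm -2.62, and that of paraxial mesoderm 1.01.

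Markers of other cell types that EBs can hold moved with the groups too. The 10 extraembryonic endoderm markers that are in no other list summed to 1064 to 1133 CPM in WT, 556 to 561 in KO and 87.4 to 89.3 in KO_PAPC. Most of that sum was *Col4a1*, at 500, 221 and 44.0 CPM in WT, KO and KO_PAPC, and *Cubn*, at 238, 98.8 and 8.76 CPM. All 12 genes of that list were tested. In KO against WT 10 of them were lower, while *Afp* and *Ttr* were higher. In both comparisons with KO_PAPC all 12 were lower. The 9 neural and neural crest markers summed to 198.5 to 205.7, 122.6 to 130.1 and 287.5 to 290.4 CPM, the 9 fibroblast markers to 50.7 to 52.0, 35.8 to 36.4 and 18.9 to 21.3 CPM with *Lum* at the floor, and the 7 pluripotency markers to 2385 to 2433, 3897 to 3930 and 2184 to 2235 CPM. Most of the fibroblast sum in WT was *Pdgfra*, which early mesoderm and primitive endoderm also express, at 34.6 to 35.8 CPM in WT, 12.2 to 13.9 in KO and 2.08 to 2.63 in KO_PAPC. Without it the fibroblast sums were 15.9 to 16.3, 21.9 to 24.2 and 16.6 to 19.2 CPM, highest in KO. *Thy1* had most of that excess, at 4.38, 11.56 and 4.82 CPM in WT, KO and KO_PAPC. In KO against WT, *Thy1* and *Col1a1* were higher, and *Col1a2*, *Pdgfra* and *Pdgfrb* were lower. In KO_PAPC against WT, 4 of 6 tested fibroblast genes were higher and *Pdgfra* was lower. The part of these markers in the members' values was not tested. Mesoderm could not be checked as a cell type by the members alone. Of the cardiac list, *Mesp1* had 2 to 9 counts and *Nkx2-5* 3 to 13 counts per library, and neither was tested. Other genes of the mesoderm lists were detected and tested, and their calls, given above, went in both directions.

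Genes with a course most like a member's were ranked by Pearson's r of log2(CPM + 0.5) over the 9 libraries, among 14169 other genes. As the 9 libraries fall into 3 tight groups, r mostly reflects the order and spacing of 3 means, and many genes score high: 12.2% of the genes reached 0.95 for *Kdr*, 11.7% for *Hand1*, 10.3% for *Tbx4*, 5.004% for *Tbx2* and 4.63% for *Tbx20*. The nearest to *Kdr* were *Cdca3* (r = 0.998) and *Fam183b* (r = 0.995), and to *Hand1* they were *Rnf149* and *Gss* (both r = 0.998). The level range of such genes could be far smaller than the member's, as for *Cdca3* at 209, 222 and 197 CPM in WT, KO and KO_PAPC. For *Tbx4* they were *Ptpn20* and *Cd38* (both r = 0.998), *Ptpn20* being at 5.36, 6.45 and 0.518 CPM. For *Tbx2* they were *Dnah2* and *Bend7* (r = 0.992 and 0.991), and for *Tbx20* they were *Ttc17* (r = 0.996) and *Kbtbd11* (r = 0.995). Fewer genes resembled *Twist1* (1.31% at 0.95 or more), led by *Scarf2* (r = 0.989) and *Prkar2a* (r = 0.986). For *Isl1*, where counting error is large, 4 genes reached 0.95, led by *Fgfr4* (r = 0.954) and *Kctd13* (r = 0.951).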

How the data were processed

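Total RNA of pooled EBs was sequenced from a TruSeq library per replicate. Per the labels, the authors mapped reads to GRCm38 with STAR 2.7.2b and counted them per gene with featureCounts 1.6.5. The paper's methods state for KO and KO_PAPC that multi-mapping reads and reads over several genes were left out, and describe an earlier pipeline for KO with WT, while all 9 columns lay in 1 table. The deposited counts were whole, not normalized, and no column was left unused (0). Symbols came from GENCODE M21, and 241 of 55471 IDs had no match. All replicates of a group share a cell line or clone, so p-values measure the spread between EB pools of it, which may be in part technical. Replicates differed by more than sampling noise (chi-square test).

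The members and lists were chosen with earlier results of these data known. All 10 members were named, with at most 3 genes per context list (smallest adjusted p among called genes reaching 1 CPM) and the 2 most similar genes per member tested in every comparison. For 1 gene met by this rule the values are not reported here. Each comparison used edgeR 4.0.16 (R 4.3.3) on its 6 libraries, with the quasi-likelihood test, TMM, filterByExpr and Benjamini-Hochberg adjustment, called at 0.05. CPM used library totals. The script was tested on simulated data. Alternatives were DESeq2 1.42.0, 2 scalings, 2 filters, a joint fit, a replicate block, a minimum fold change of 2 and each replicate left out. Replicate numbers were not taken as pairs in the main fits. A permutation test of 3 against 3 cannot go below 0.1 and was not used.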

Additional observations from a re-analysis of the deposited data

How the results depend on the processing

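Of 335 values of single members under the alternatives, 318 kept their direction and their side of the threshold, 15 lost the call, 1 gained it and 1 reversed. A tested minimum fold change of 2 accounts for 8 of the lost calls by its construction and left 1587 genes called for KO against WT, then 3554 and 1335 for KO_PAPC against KO and against WT. It left 0 members lower in KO against WT and 4 lower in KO_PAPC against WT. The other 7 lost calls were those of *Isl1*. Its value in KO against WT, not called, ran from -0.34 to 0.017 with each replicate left out, reversing without KO replicate 2 (edgeR adjusted p = 0.960). Under the filter of a mean of at least 10 counts, *Foxf1* was not tested in KO against WT, which left 2 members lower there. That case is not among the 335 values. DESeq2 called *Foxf1* in that comparison close to the threshold (adjusted p = 0.0435). With each replicate left out in turn, 0 to 1 members were higher and 6 to 7 lower in KO_PAPC against KO, 7 to 8 were lower in KO_PAPC against WT, and 12382 to 12820, 13785 to 14137 and 11208 to 11654 genes were called in the 3 comparisons. Scaling by library totals moved the median of all tested genes to -0.18 in both comparisons with KO_PAPC, and the members' medians to -2.45 and -1.82.

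A fit blocked on the replicate number called 12587, 13822 and 12223 genes, and 3 members higher and 3 lower, 7 lower, and 7 lower, as without it. Same-numbered libraries correlated at -0.089 to 0.14. In 4 of 18 pairings of a library with a comparison the library correlated best with its own number. All 4 were in KO_PAPC against WT, where r was 0.138, 0.086 and -0.0034 for numbers 1, 2 and 3. The blocked fit called more genes there, 12223 against 11760 without the block. A link by number between KO_PAPC and WT is therefore not settled, and none was seen in the other comparisons. Counts near the floor limit *Foxf1*, *Meox1*, *Isl1* and *Osr1*.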
